A study of Mus musculus with 28 samples.

Results

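The 3 highest-numbered of the 12 coronal fractions of a mouse brain, fractions 10, 11 and 12, were compared with the other 9, fractions 1 to 9. Membership follows from the fraction number, and they are 3 of the 28 fractions in the series. The compared fractions and the gene lists used below were chosen with earlier results of these data known. All 12 came from mouse 1, a male C57BL/6J mouse aged 3 weeks, whose frozen brain was cut across its length (the coronal plane) and pooled slab by slab, a method called Transcriptome Tomography. Both sides of the comparison share this genotype, sex and age, and no animal received a treatment. The labels give a fraction as 100 sections of 5 micron, but the study states another thickness, so positions are given by number only. The label of fraction 12 also names the slab after it, so fraction 12 may be wider than the rest. Each fraction is 1 array and each position was measured once. Neighbouring fractions are parts of the same brain and share structures, so every p-value below describes the spread between fractions of this brain and not between animals.

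The olfactory bulb is the most anterior part of the mouse forebrain. Axons of olfactory sensory neurons, whose cell bodies lie in the nose, end there in glomeruli and contact mitral and tufted cells, the neurons that carry odour signals to the olfactory cortex. Granule and periglomerular interneurons modulate this output and are replaced throughout life by neuroblasts that migrate forward from the wall of the lateral ventricle, while ensheathing glia wrap the incoming axons in the outermost layer.

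The labels do not say at which end of the brain the numbering starts. Hoxb5, a gene of the hindbrain and spinal cord, was highest in fraction 1, at 3.82 on the log2 scale used throughout, which is log2 of the signal minus the 75th percentile of its array. The sensory neuron marker Omp was highest in fraction 12, at 7.04. Fractions 10 to 12 are therefore called rostral here.

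On the 12 arrays the 75th percentile of the signal ranged from 251 to 574. It was lowest in fractions 10 (251) and 11 (292), and the next lowest was 363 in fraction 1, while fraction 12 (421) lay among the others. Between 24822 and 30323 of 55681 probes were well above background, and no spot was saturated. The arrays lay on different slides. Fractions 1 and 2 were on slide 1, fractions 3 to 10 on slide 2 and fractions 11 and 12 on slide 3. Slide 2 therefore holds the only rostral fraction that can be compared within a slide. It is 1 array, assumed to vary like fractions 3 to 9. Fractions 11 and 12 share slide 3 with no other coronal fraction. With the slide as a term in the fit, the rostral difference is therefore again that of fraction 10 from fractions 3 to 9. Fractions 11 and 12 add nothing to that difference, and the step from fraction 10 to 11 cannot be told apart from the change of slide.

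Rostral levels differed from those of the other fractions for many transcripts, and the olfactory markers S100a5, Doc2g and Omp were among the 12 named genes with the largest increases. Of 25270 probes well above background on every array of at least 1 side, 2710 (10.7%) were higher and 1915 (7.58%) lower in the rostral fractions (limma, Benjamini-Hochberg adjusted p under 0.05). The 3 rostral levels lay above all 9 others for 1655 probes (6.55%) and below all 9 for 1467 (5.81%). Most called differences were modest, with a median of 0.87 log2 among the higher and -0.82 among the lower. Among the higher probes 124 exceeded 2 log2, as did 106 of the lower. Left out of the fit, fraction 11 reduced the calls to 709 higher and 588 lower. With the slide as a term there were 2044 higher and 581 lower, with the slide as a random block 2157 and 1292, and within slide 2, where fraction 10 was set against fractions 3 to 9, 2539 and 768. Of the 2710 higher and 1915 lower probes, 1203 and 405 were also called with the slide as a term, and 1902 and 1191 with the slide as a random block. Fewer cells of a type and less RNA per cell cannot be told apart in these bulk fractions.

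Transcripts of olfactory sensory neurons split into a few that were very high in the bulb and many that were not. Omp encodes olfactory marker protein, which mature sensory neurons make in quantity. In fractions 1 to 9 its level ran from -2.49 through a median of -1.69 to -0.41, and in fractions 10, 11 and 12 it was 1.39, 7.02 and 7.04. The groups did not overlap, and the difference was 6.75 ± 0.91 log2 (SE, 3 against 9 fractions; limma adjusted p = 0.00126). S100a5, a calcium-binding protein of the same neurons, lay between -2.49 and -1.84 (median -2.02) in the other fractions and reached 2.86, 7.61 and 7.17 rostrally, a difference of 7.98 ± 0.71 (adjusted p = 0.000222). Both genes were low in all 9 other fractions. Within slide 2, fraction 10, a single array, stood 3.22 above fractions 3 to 9 for Omp.

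A further member, Gng8, a G protein gamma subunit of olfactory and vomeronasal neurons, had levels of 1.24, 2.43 and 2.05 against -0.86 to 1.099 (median -0.33), a difference of 1.97 (adjusted p = 0.0075). Stoml3, a stomatin-like protein of their cilia, showed -3.53, 1.34 and 1.53 against -6.93 to -4.44, with no overlap, but it was well above background on 2 rostral arrays and 1 other and was not tested. The components of the odour transduction cascade behaved otherwise. Cnga2, a subunit of its cation channel, was at -1.30, -0.94 and -1.24, inside or just above the -1.36 to -0.99 of the other fractions, and its difference was 0.01 (adjusted p = 0.959). Adcy3, the adenylyl cyclase, differed by -0.32 (adjusted p = 0.228), and Gnal, the G protein alpha subunit that the striatum also expresses, by -0.77 (adjusted p = 0.211). Of the 18 listed genes of these neurons 14 were tested, 3 were higher and 2 lower, against 10.7% and 7.58% of all tested probes, the latter being Ric8b (-0.68, adjusted p = 0.00671) and Slc8a3 (-1.56, adjusted p = 0.00106). The median of the 14 was -0.15, beside 0.02 over all tested probes. The counts were 2 and 1 within slide 2 and with the slide as a term, and 2 higher without fraction 11.

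Few receptors for odours were bright enough to test. Of 1071 odorant receptor genes with a probe, 766 were well above background on no coronal array, 37 were tested, and 1 was higher and 2 lower, against 10.7% and 7.58% of all tested probes. The count of higher receptors was 6 with the slide as a term, 6 without fraction 12 and 0 without fraction 10 or 11. When dim probes were not filtered out it was 50 among the 1071 genes, beside 2716 of all 55636 probes then tested. The lower count was 5 without fraction 10, 4 after quantile normalization, and 0 without fraction 11 and with the slide as a term. None of the 12 tested of 252 vomeronasal receptor genes passed the limma threshold in either direction (3 at an unadjusted p under 0.05). Genes of the nasal epithelium, which would mark tissue of the nose in the fractions, were tested for 5 of 15 genes with a probe. The higher member was Cbr2, a carbonyl reductase, at 2.22, 2.30 and 2.18 against 0.06 to 1.19 (median 0.63; difference 1.64, adjusted p = 0.00102). Cyp2g1, an enzyme of the olfactory mucosa, and Obp2a and Bpifa1, secreted there, were not well above background in any rostral fraction.

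**Figure D1:**
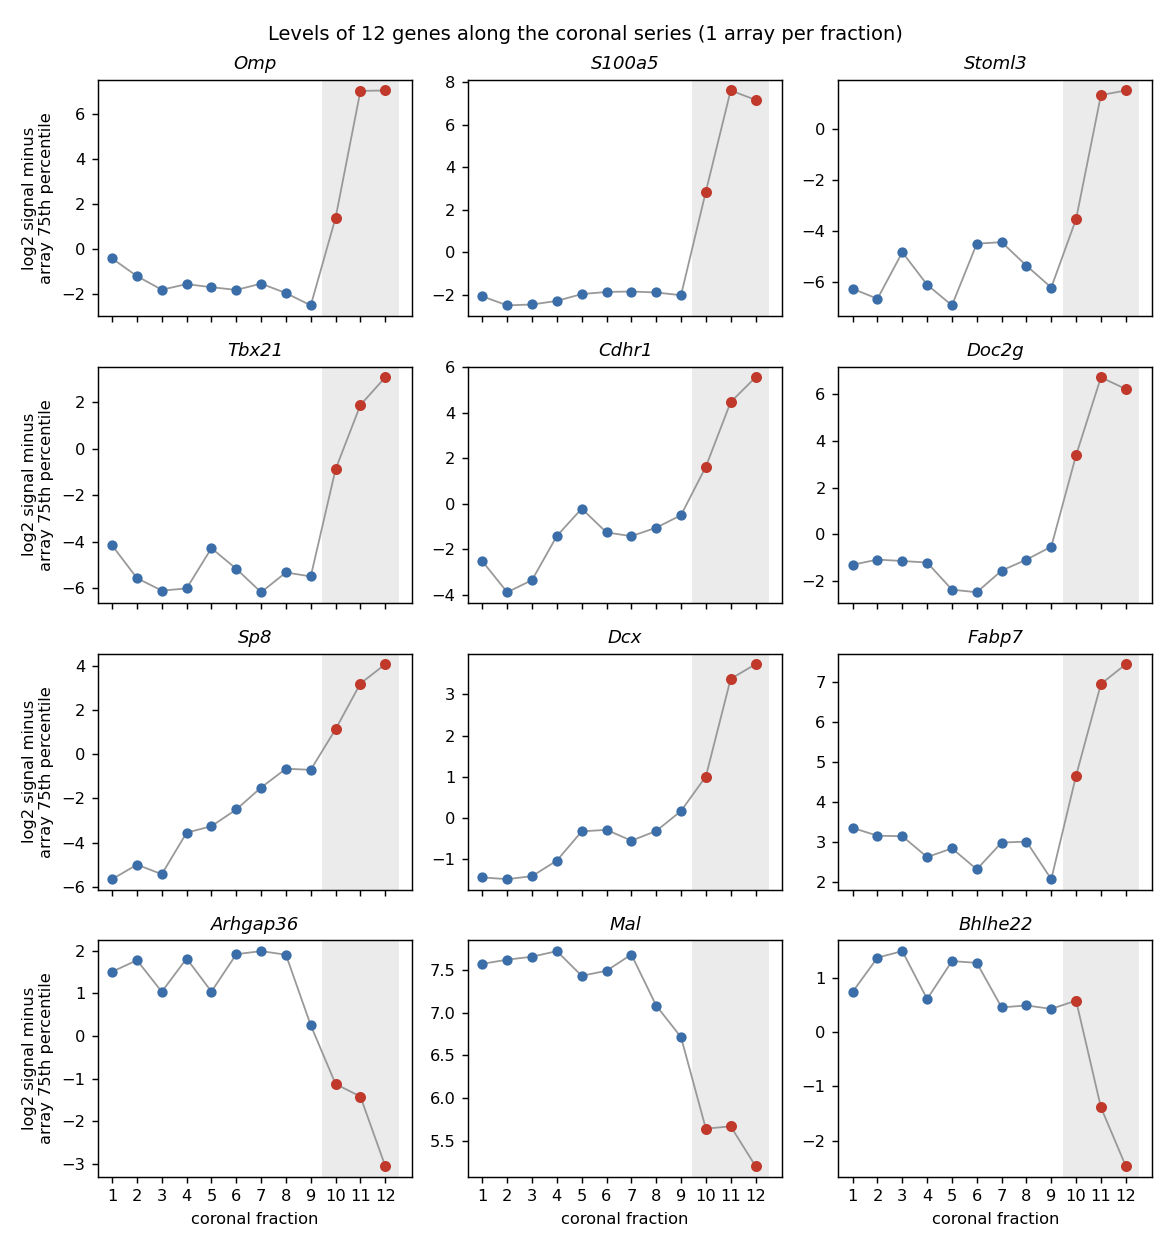
Levels of 12 genes in each coronal fraction (log2 scale relative to the 75th percentile). Blue points are fractions 1 to 9 and red points on grey are fractions 10 to 12. Omp, S100a5 and Stoml3 jump between fractions 10 and 11, Tbx21 and Cdhr1 climb through fraction 12, and Bhlhe22 keeps its level in fraction 10 (0.58) before it drops.

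Mitral and tufted cell genes had the highest median difference of the tested lists. Of 14 genes 11 were tested, 6 were higher and 1 was lower, against 10.7% and 7.58% of all tested probes, and the median difference of the 11 was 3.89. Among probes well above background on all 12 arrays, 4 were higher. Tbx21, a T-box transcription factor of mitral and tufted neurons, passed the background test on 1 of the 9 other arrays, lay between -6.18 and -4.17 there (median -5.50), and was at -0.89, 1.87 and 3.06 in fractions 10, 11 and 12. Every rostral fraction was above every other. The difference of 6.72 ± 0.67 log2 (limma adjusted p = 0.000377) is set against levels mostly not well above background, and it was 3.90 after normexp background correction. Cdhr1, a cadherin of mitral and tufted cells, had 1.63, 4.47 and 5.56 rostrally, while the other fractions ran from -3.90 to -0.22 (median -1.42; difference 5.63 ± 0.86, adjusted p = 0.00195).

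Doc2g, a C2-domain protein enriched in the same layer, reached 3.39, 6.73 and 6.23 above a range of -2.50 to -0.54 (median -1.22; difference 6.88 ± 0.59, adjusted p = 0.00017). Nmb, the peptide neuromedin B, had the narrowest spread of the group outside the bulb, 0.30 to 1.33 (median 0.70), and rose to 2.97, 5.79 and 6.38, by 4.35 ± 0.52 (adjusted p = 0.000789). Shisa3 and Lbhd2, further markers of these cells, were higher by 4.61 (adjusted p = 0.00299) and 3.37 (adjusted p = 0.00464). The 6 genes had no rostral level at or below another fraction's, as was so for 6.55% of all tested probes. Eomes, a T-box factor related to Tbx21, was at -0.50, 2.43 and 3.86, but also at 1.29 in fraction 2, and its difference of 3.89 did not pass (adjusted p = 0.0774). Slc17a6, the vesicular glutamate transporter of thalamic, brainstem and mitral neurons, was lower, at -0.03, 0.24 and 0.54 against a median of 2.54 (difference -2.02, adjusted p = 0.015), and overlapped with fraction 9 (0.25). This lower call was lost without fraction 10 or 11, with the slide as a term and against fractions 7 to 9. The count of higher genes was again 6 with the slide as a random block, and it was 3 within slide 2, with the slide as a term and against fractions 7 to 9 alone.

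Among the transcripts with the largest increases were several outside the fixed lists. Ms4a15, a membrane protein of the MS4A family, was not well above background in any of fractions 1 to 9 (-7.01 to -5.12) and had 1.13, 3.98 and 5.05 in fractions 10 to 12. Its rostral mean was at least 229-fold higher than the detection limit of the other arrays (limma adjusted p = 5.75e-05), the lower bound being taken against the dimmest signal that was well above background on each array or the probe's own. Frmd7, a FERM-domain protein, was at least 10.4-fold higher (adjusted p = 0.000427), Cpa6, a carboxypeptidase, at least 12.6-fold (adjusted p = 0.000572), and Scgn, the calcium sensor secretagogin of bulb interneurons, at least 10.1-fold (adjusted p = 0.000377). These genes were likewise not well above background on any of the 9 other arrays. Like Ms4a15, they entered the test through their rostral arrays alone, and the p-values of all these genes are set against background levels. After normexp with an offset of 50, which draws dim signals together, the differences were 6.10 log2 for Ms4a15, 2.26 for Frmd7, 2.36 for Cpa6 and 2.24 for Scgn, each still called. Nppa, which encodes natriuretic peptide A, had 1.04, 3.91 and 3.78 against -3.96 to -1.44 (median -2.66; difference 5.72 ± 0.66, adjusted p = 0.000756).

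Transcription factors of the interneuron lineage were graded along the brain, with a mean level of the tested members of -2.89 in fraction 1, -1.05 in fraction 4 and 0.30 in fraction 9, and then 0.64, 2.05 and 2.33. Of 14 such genes 12 were tested and 5 were higher (Dlx1, Dlx5, Sp8, Sp9 and Tshz1), none lower, against 10.7% and 7.58% of all tested probes, with a median difference of 3.04. Sp8, a zinc-finger factor of periglomerular and granule precursors, was at -5.65 in fraction 1 and -0.66 in fraction 8, the extremes of the other side (median -3.26), and at 1.12, 3.19 and 4.06 rostrally. The difference was 5.93 ± 1.101 (SE; limma adjusted p = 0.00397), while the second Sp8 probe gave 1.41. Within slide 2 the Sp8 value was 3.64 and did not pass (adjusted p = 0.16). Dlx1, a homeobox gene of forebrain GABA neurons, ran from -6.73 in fraction 3 to 0.03 in fraction 8 and then to 0.90, 2.97 and 3.15 (difference 4.94 ± 1.51, adjusted p = 0.0383), and this call was lost without fraction 4, 11 or 12 (adjusted p = 0.058, 0.17 and 0.11). Dlx2 had 0.79, 2.42 and 2.82 above a highest other level of 0.33, but its wide spread left it short of the threshold (difference 4.77, adjusted p = 0.0638). Several of these genes were well above background on only part of the other arrays (Sp8 and Dlx1 on 6 of 9), and the count was 1 among probes well above background on all 12 arrays and 3 with no filter. It was 2 with the slide as a random block and 2 without fraction 11, and it was 0 within slide 2, with the slide as a term and against fractions 7 to 9.

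Of 13 genes of migrating neuroblasts 11 were tested and 6 were higher (Dcx, Cd24a, Tubb3, Sox4, Prokr2 and Igfbpl1), against 10.7% of all tested probes, with a median of 1.36, and the count was 1 within slide 2, with the slide as a term and against fractions 7 to 9. Dcx, a microtubule protein of young neurons, was at -1.48 to 0.17 (median -0.55) and at 1.01, 3.38 and 3.73 rostrally (difference 3.45, limma adjusted p = 0.00179), and the other tested Dcx probe gave 3.97. Prokr2, a receptor that neuroblasts need to reach the bulb, had -0.76, 0.96 and 1.01 against -3.31 to -1.88 (median -2.82; difference 3.12, adjusted p = 0.00106). Its ligand gene Prok2 reached -2.30, -0.01 and 0.37, and fraction 9 was also raised, at -1.65, so the sides overlapped (difference 4.29, adjusted p = 0.00835). None of 8 tested cell cycle genes passed the limma threshold (0 at an unadjusted p under 0.05), a count near the 10.7% higher and 7.58% lower of all tested probes. Mki67, a marker of dividing cells, was at -1.81, -2.75 and -2.80, below its -0.80 in fraction 9 (difference 0.53, adjusted p = 0.713).

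Lists of mature bulb interneurons had few calls. In the periglomerular list 1 of 11 tested genes was higher and 2 were lower, and in the granule cell list 2 of 11 were higher and 1 lower, counts near the 10.7% and 7.58% of all tested probes. Within slide 2 and with the slide as a term all 4 counts were 0. The higher counts were 0 and 1 without fraction 11, without fraction 12 and with the slide as a random block. Both lower counts were 0 without fraction 11 and with the slide as a random block, and they were 1 and 0 without fraction 12. Th, tyrosine hydroxylase of dopamine neurons, had 3.31, 5.98 and 6.63, but fractions 1 and 5 were at 3.45 and 4.07, above fraction 10 (median of the other fractions 2.41; difference 2.63, limma adjusted p = 0.0128). Slc6a3, the dopamine transporter, was 3.73 in fraction 5 and -1.02, 0.81 and 1.96 rostrally (adjusted p = 0.396). Ddc, which makes dopamine from the product of Th, was lower at 1.46, 1.67 and 2.11 (median elsewhere 2.91; difference -1.21, adjusted p = 0.0285). Synpr, a synaptic vesicle protein of granule cells, stood at 4.25, 5.50 and 5.72, above the 2.96 to 3.89 of the other fractions (difference 1.70, adjusted p = 0.00341), and Meis2, a homeobox factor, rose by 2.19 (adjusted p = 0.0119). Gad1 and Gad2, the enzymes of GABA synthesis, differed by 0.62 (adjusted p = 0.127) and 0.24 (adjusted p = 0.692).

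The stretches before the transcription start sites are shown for 4 genes of these groups, the markers S100a5 and Doc2g and the neuroblast and precursor genes Dcx and Sp8, because the 2 latter hold a motif that was searched in genes higher in the rostral fractions. They are the 250 bases before the start, from the RefSeq promoter table of build GRCm38.p6, written 5′ to 3′ on the strand of the gene. Capitals mark TAATTA, a core of homeodomain binding sequences that reads the same on both strands.

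S100a5 (chr3:90608272-90608521, plus strand): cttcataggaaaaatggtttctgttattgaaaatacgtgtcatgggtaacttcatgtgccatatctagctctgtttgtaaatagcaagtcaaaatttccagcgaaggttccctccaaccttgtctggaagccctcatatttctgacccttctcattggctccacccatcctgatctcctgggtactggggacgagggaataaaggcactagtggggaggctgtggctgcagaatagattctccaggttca

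Doc2g (chr19:4003135-4003384, plus strand): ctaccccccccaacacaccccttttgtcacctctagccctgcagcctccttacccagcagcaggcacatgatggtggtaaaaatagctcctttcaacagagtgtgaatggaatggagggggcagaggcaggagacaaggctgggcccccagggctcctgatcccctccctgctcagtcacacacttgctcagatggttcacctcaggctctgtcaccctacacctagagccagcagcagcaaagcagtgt

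Sp8, the third of 3 starts (chr12:118847309-118847558, plus strand): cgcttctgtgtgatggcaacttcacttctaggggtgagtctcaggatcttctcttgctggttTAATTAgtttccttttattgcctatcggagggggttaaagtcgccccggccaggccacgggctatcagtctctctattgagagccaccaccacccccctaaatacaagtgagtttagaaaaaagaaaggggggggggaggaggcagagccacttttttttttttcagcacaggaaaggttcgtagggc

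Dcx, the first of 2 starts (chrX:143933220-143933469, minus strand): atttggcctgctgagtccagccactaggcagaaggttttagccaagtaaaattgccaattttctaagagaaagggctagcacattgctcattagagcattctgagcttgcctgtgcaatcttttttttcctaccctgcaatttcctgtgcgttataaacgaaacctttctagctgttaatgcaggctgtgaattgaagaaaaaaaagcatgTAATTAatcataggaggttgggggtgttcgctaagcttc

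The match begins 188 bases before this Sp8 start and 39 before this Dcx start. In windows from 250 bases before to 50 after the start, TAATTA occurred in 5.29% of 32851 promoters. Counted per gene, it was found for 6.12% of 27025. Of the 74 genes higher by over 2 log2 that the table holds, 7 had it (9.46%), beside 3.47% of the 10857 tested genes and 4 of the 54 genes lower by over 2 log2 (7.41%). None of the 19 promoters found for 15 sensory neuron genes held it. A palindrome bound by Ebf factors was searched too, and was in 1 of the 74 higher genes (1.35%), 1.30% of the tested genes and 2 of the 54 lower genes. Omp was not among the entries. A match is a description of letters, and its absence says only that these letters are not in this window.

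**Figure D2:**
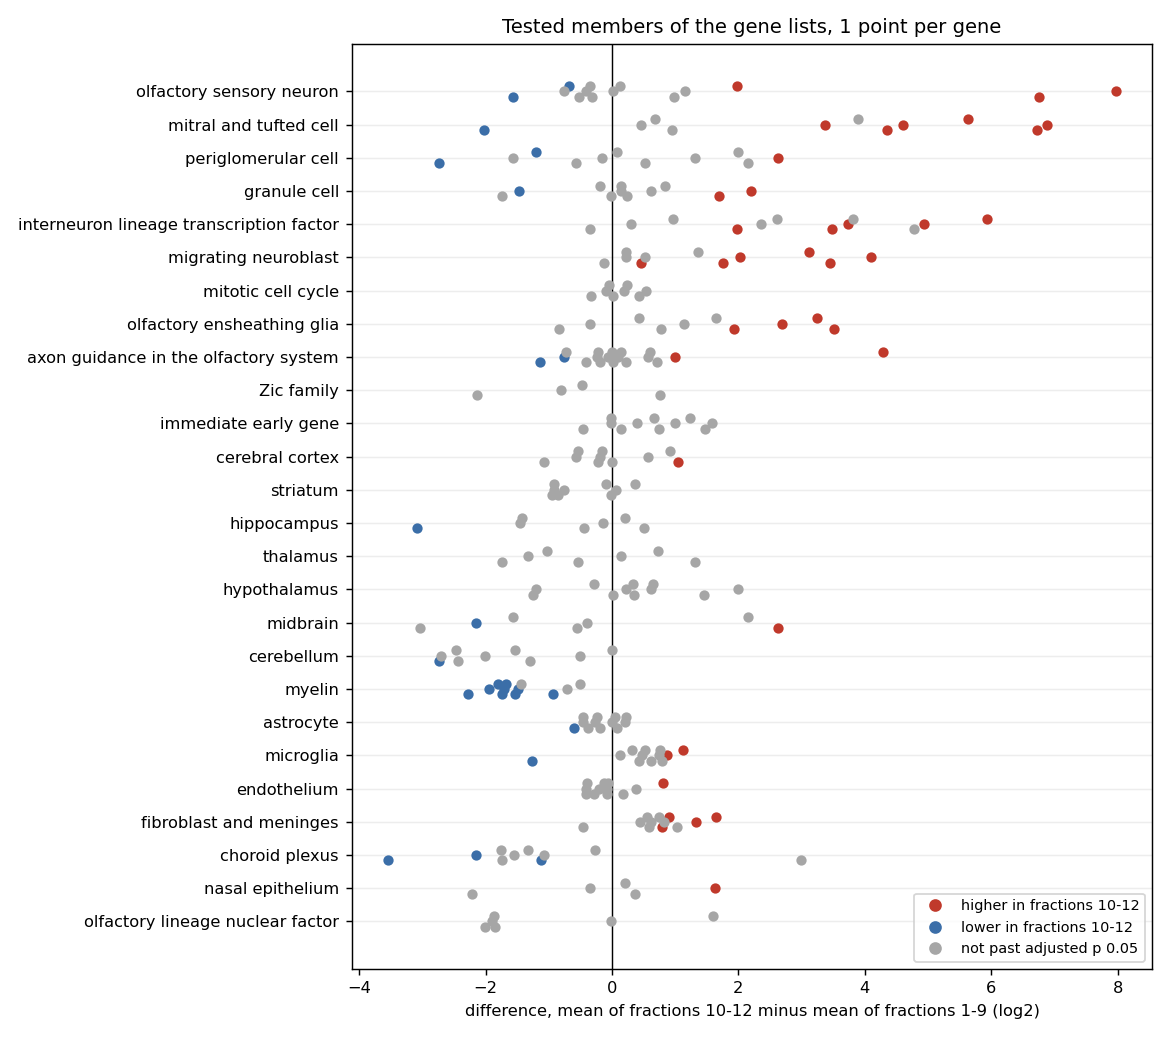
Difference between the mean of fractions 10 to 12 and the mean of fractions 1 to 9 (log2) for each tested gene of 26 lists. Red and blue mark genes past adjusted p 0.05 in limma and grey those that were not. The mitral and tufted cell list reaches 6.88 (Doc2g), and 9 of the 12 myelin genes are blue.

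Some genes of ensheathing glia rose, and the mean of the tested members was 1.01, 2.29 and 3.11 in fractions 10, 11 and 12, against 0.51 to 0.97 elsewhere. Of 11 genes 10 were tested, 4 were higher (Frzb, Fabp7, Prss56 and Aldh1a3) and none lower, against 10.7% and 7.58% of all tested probes, with a median of 1.39. Fabp7, a fatty acid binding protein of radial and ensheathing glia, had 4.66, 6.95 and 7.44 against 2.07 to 3.35 (median 2.99; difference 3.51, limma adjusted p = 0.00106). Frzb, a secreted Wnt antagonist, had 0.09, 1.85 and 3.20 against -1.90 to -0.26 (median -0.82; difference 2.68, adjusted p = 0.00436). Prss56, a trypsin-like protease, was at -2.85, -1.33 and 0.10, just above its highest other level of -3.08 (difference 3.24, adjusted p = 0.0103, with 2 of the 9 other arrays well above background, and 1.71 after normexp), and was not called without fraction 11 or 12 (adjusted p = 0.060 and 0.0501). Sox10, the transcription factor that ensheathing glia share with oligodendrocytes, differed by -0.34 (adjusted p = 0.379). The count of 4 was 1 within slide 2 and with the slide as a term, and 0 against fractions 7 to 9.

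Of 18 tested genes of axon guidance in the olfactory system, 2 were higher (Prok2 and Epha5) and 2 lower, near the 10.7% and 7.58% of all tested probes, and the higher count was 0 without fraction 11 and 1 with the slide as a term or random block. Sema7a, a semaphorin anchored in the membrane, fell by 0.75 on the log2 scale, from 4.55 to 4.84 in the other fractions to 4.18, 3.95 and 3.78 (adjusted p = 0.00255 in limma), and Cntn4, an adhesion molecule, fell by 1.14 (adjusted p = 0.00377). Nrp1 and Nrp2, the receptors that sort sensory axons, differed by -0.06 (adjusted p = 0.911) and -0.23 (adjusted p = 0.612). Immediate early genes, which mark recent neuronal activity, gave 0 calls among 11 tested in limma (3 at an unadjusted p under 0.05).

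Markers of other cell types moved with the rostral fractions in part. Of the 12 fibroblast and meningeal genes, all tested, 4 were higher (10 at an unadjusted p under 0.05), against 10.7% of all tested probes, among them Igfbp2 (3.53, 4.33 and 4.37 against 1.90 to 2.94; difference 1.64, limma adjusted p = 0.00145) and Slc22a6, an organic anion transporter of the meninges (1.93, 1.91 and 2.21 against 0.24 to 1.08; difference 1.33, adjusted p = 0.00217). Col1a1 and Dcn, defining genes of fibroblasts, differed by 0.61 (adjusted p = 0.125) and 0.83 (adjusted p = 0.151). The count was 2 after quantile normalization and within slide 2, and 1 with the slide as a term. The mean level of that list was 2.77, 2.75 and 3.34 rostrally and 1.93 to 2.70 elsewhere. The mean of the 12 microglial genes, of which 2 were higher and 1 lower, was highest in fraction 10 (4.30, then 3.83 and 3.31, against 2.78 to 3.85). The 2 higher calls are near the 10.7% of all tested probes, and their count was 0 without fraction 10 or 11, 5 without fraction 12 and 4 under the array median. The 4 tested blood genes gave 0 calls in limma (3 at an unadjusted p under 0.05), and their mean of 2.18, 2.26 and 2.21 lay below the 2.68 of fraction 3. The part of these cells in the differences above was not tested.

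Myelin was the list with the most lower calls. Of 12 myelin genes 9 were lower, against 7.58% of all tested probes, and the median was -1.61. Mal, a proteolipid of compact myelin, was at 5.64, 5.67 and 5.20 against 6.71 to 7.72 (median 7.57), a difference of -1.94 (limma adjusted p = 0.000549). Ugt8a, which makes the myelin lipid galactosylceramide, was at 1.00, 0.84 and 0.17 against 2.00 to 3.30 (median 3.05; difference -2.28, adjusted p = 0.00076). For the 9 genes no rostral fraction reached the level of any other, as was so for 5.81% of all tested probes. The lowest other level was that of fraction 9 for both of those named here. Mbp, a myelin protein gene with 5.36, 5.61 and 3.25 against 5.09 to 7.63, did not pass (adjusted p = 0.0884). The count stayed at 9 without fraction 11, with the slide as a random block and after quantile normalization, and was 7 within slide 2, 5 with the slide as a term and 2 against fractions 7 to 9 alone.

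Among the lower genes were 3 of cholinergic neurons, grouped here after their values were seen. Chat, the enzyme of acetylcholine synthesis, was at -1.29, -1.92 and -1.99 against 0.15 to 1.32 (median 0.56; difference -2.37, limma adjusted p = 0.000427). Slc5a7, the choline transporter, was at -3.44, -3.32 and -4.50 against -2.06 to 0.23 (median -0.33; difference -3.04 ± 0.49, adjusted p = 0.00246), and Slc18a3, which loads acetylcholine into vesicles, was at -0.95, -1.28 and -2.59 against -0.64 to 2.25 (median 1.37; difference -2.60 ± 0.59, adjusted p = 0.0106). None of the 3 overlapped, as was so for 78 of the 106 probes lower by over 2 log2 and for 5.81% of all tested probes. Within slide 2 the calls of Slc5a7 (-2.69, adjusted p = 0.074) and Slc18a3 (-1.70, adjusted p = 0.26) were lost, and after normexp the Slc5a7 difference was -1.62.

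Several genes of other regions were not well above background in any rostral fraction. Syt2, a calcium sensor of fast synapses, was at -4.64, -4.02 and -5.79 there and lay between -2.86 and 0.74 in the other fractions, at least 6.91-fold higher (limma adjusted p = 0.00768, but 0.079 after normexp and 0.11 within slide 2). Prlr, the prolactin receptor of choroid plexus and hypothalamus, was likewise at least 8.32-fold higher in the other fractions by its brighter probe (adjusted p = 0.00175), while its other tested probe was lower by 1.32 on the log2 scale, and Calcr, the calcitonin receptor, at least 4.10-fold (adjusted p = 0.00262). Prox1, a homeobox gene of hippocampal granule cells and thalamus, was at least 3.02-fold higher outside the rostral fractions (adjusted p = 0.00136). Syt2, Prlr, Calcr and Prox1 entered the test through fractions 1 to 9 alone, and their p-values are set against background levels. After normexp the log2 differences were -1.53 for Prlr, -1.03 for Calcr and -0.72 for Prox1. Measured on all 12 arrays, Arhgap36, a GTPase-activating protein family member expressed in the hypothalamus, was at -1.12, -1.42 and -3.05 against 0.25 to 1.99 (median 1.78; difference -3.34 ± 0.42, adjusted p = 0.00102). Ntf3, neurotrophin 3, was lower by 3.11 on the log2 scale and Vamp1, a vesicle protein of fast-firing neurons, by 2.58, and both calls were lost without fraction 11 (adjusted p = 0.057 and 0.056) and without fraction 12 (0.090 and 0.055). The Ntf3 call was lost too with the slide as a random block (0.0715), and within slide 2 the Ntf3 difference was -1.60. Irx1, a homeobox gene of midbrain and hindbrain, had a rostral mean 2.99 lower (adjusted p = 0.027), although fraction 9 (-2.22) lay below fractions 10 (-2.14) and 11 (-2.09), and this call was lost without any of fractions 10, 11 and 12 (adjusted p = 0.056, 0.100 and 0.084), with the slide as a random block (0.075) and within slide 2 (0.31). The choroid plexus list, which holds Prlr, had 3 of 10 tested genes lower, against 7.58% of all tested probes, and none higher, with a median of -1.44. The count was 2 without fraction 10 and with the slide as a random block, 1 without fraction 11, without fraction 12, within slide 2 and with the slide as a term, and 0 against fractions 7 to 9.

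Lists of the neighbouring regions had lower means towards the tip, and their counts of calls were near or below the 10.7% and 7.58% of all tested probes. No striatal gene among 9 tested passed in limma (0 at an unadjusted p under 0.05), yet the mean of that list was 3.55 in fraction 8 and 3.41 in fraction 9 and then 1.22, 0.72 and -0.27. Against fractions 7 to 9 alone, 4 of its genes were lower. In the cerebral cortex list 1 of 10 tested genes passed, Ccn2, a matrix protein of deep cortical cells, which was higher by 1.04 (adjusted p = 0.0268). That count was 0 under the array median, with the slide as a term or random block, within slide 2 and without fraction 11 or 12. The mean of the cortex list went from 1.63 in fraction 9 to 1.12, 0.51 and 0.05, and Neurod6, a factor of cortical projection neurons, went from 1.17 in fraction 10 to -1.24 and -2.46. The astrocyte list had 1 of 12 genes lower (Fgfr3, -0.60, adjusted p = 0.0384). This lower count was 0 without fraction 10, 11 or 12, under the array median and with the slide as a term or random block. The mean of the list went from 4.60 in fraction 1 to 3.71 in fraction 9, and its rostral means of 3.84, 3.95 and 3.95 lay inside that range.

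**Figure D3:**
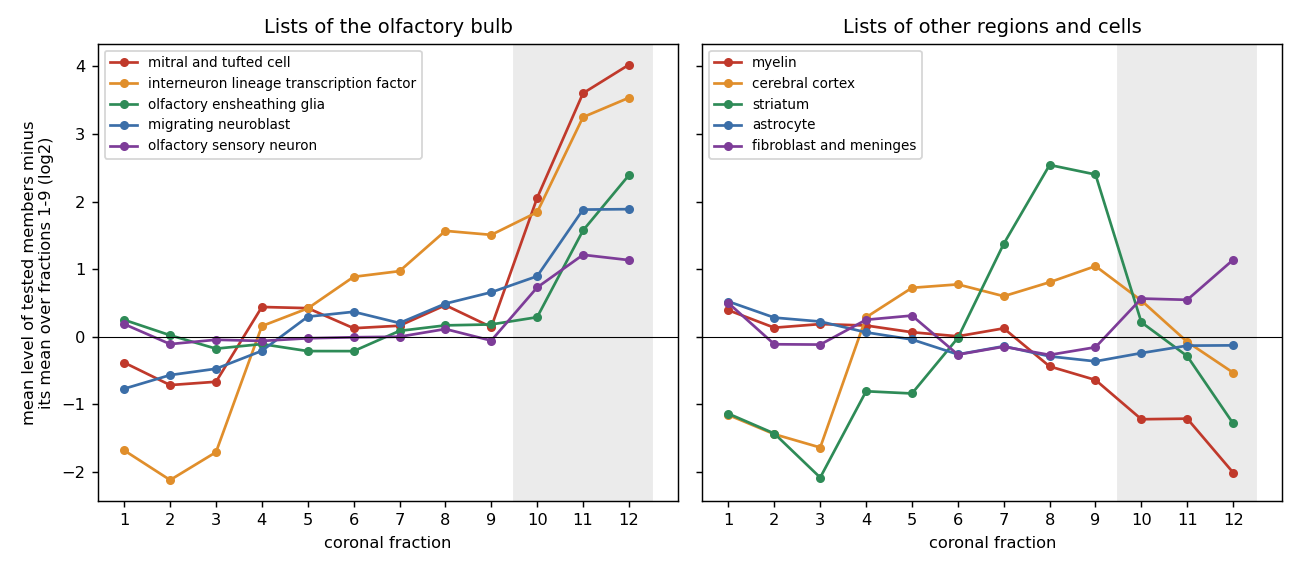
Mean level of the tested members of 10 lists in each coronal fraction, minus the mean of the same list over fractions 1 to 9 (log2). Grey marks fractions 10 to 12. The interneuron transcription factors are higher from fraction 4 on than in fractions 1 to 3, the mitral and tufted cell list goes from 0.20 in fraction 9 to 2.11 in fraction 10 on its unshifted scale, and the striatal list peaks in fraction 8.

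The steps between single rostral fractions have 1 array on each side and no test. From fraction 9 to 10, 9.58% of the 29067 probes well above background on either array rose by over 1 log2 and 6.26% fell. From 10 to 11, 5.66% of 27374 rose and 10.7% fell, and from 11 to 12 the shares were 3.74% and 4.79% of 28965. The balance depended on scaling, since under the array median rises outnumbered falls in both steps, at 2357 against 2162 and 2031 against 801. Of the 124 probes with a rostral excess over 2 log2, 96 rose by over 1 log2 from 10 to 11 and 2 fell, and 21 rose again and 6 fell from 11 to 12. Their highest level of all 12 fractions was in fraction 12 for 87, in 11 for 29 and in 10 for 7.

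On the scale used here the bulb genes differed in how far they rose after fraction 11. Steps of single genes under other scalings were not examined. Omp rose by 5.63 log2 from fraction 10 to 11 and by 0.02 from 11 to 12, and S100a5 rose by 4.75 and then changed by -0.44. Doc2g (3.34, then -0.50) and Nppa (2.87, then -0.13) had the same shape, whereas Tbx21 (2.76, then 1.19), Cdhr1 (2.84, then 1.09) and Ms4a15 (2.84, then 1.08) went on rising. Klhl30, a kelch-family protein, and Otop2, a proton channel, completed the 5 largest rises from 10 to 11 among called genes well above background on both arrays, at 3.73 and 3.50. Of the 12 mitral and tufted cell genes on either array, 8 rose and 1 fell by over 1 log2 from 10 to 11, and 5 of 13 rose from 11 to 12. The interneuron factors rose by over 1 log2 in 10 of 13 genes from 10 to 11 and in 0 of 13 from 11 to 12.

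From fraction 11 to 12 the 5 largest rises, under the same limits, were of different genes. Clca3a1, a secreted regulator of chloride channels, went from -0.41 to 1.48 and Fbln2, the matrix protein fibulin 2, from 1.80 to 3.41. Cyp39a1, an oxysterol hydroxylase, stepped from 1.58 to 3.04, Prss56 rose by 1.43 and Slc43a3, a purine transporter, by 1.42. Fraction 10 held none of this excess for Cyp39a1 (-0.17 against -0.65 to 0.29 elsewhere), and its difference of 1.57 was lost under the array median (limma adjusted p = 0.061) and without any of 7 fractions, 4 to 8, 11 and 12 (adjusted p = 0.0501 to 0.16). Calls were also lost without fraction 11 for Fbln2 (0.051) and without fraction 11 or 12 for Slc43a3 (0.11 and 0.088). With the slide as a random block those of Fbln2 (0.0639), Slc43a3 (0.166), Cyp39a1 (0.244) and Prss56 (0.0715) were lost.

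From 10 to 11 the 5 largest falls among called genes with a symbol, well above background on both arrays, were those of Hspa12a (2.05 log2), Prdm8 (2.01), Bhlhe22 (1.97), Sprr1a (1.86) and Lypd6 (1.81). Bhlhe22 and Prdm8, transcription regulators that act together in cortical neurons, still had in fraction 10 the levels of the other fractions (0.58 and 0.21, against ranges of 0.43 to 1.49 and 0.12 to 1.07) and ended at -2.47 and -3.92. Both calls were lost without fraction 11 (limma adjusted p = 0.087 and 0.069), and that of Bhlhe22 also without fraction 12 (0.059). With the slide as a random block the calls of Bhlhe22 (0.119), Prdm8 (0.109), Lypd6 (0.101) and Hspa12a (0.102) were lost. Within slide 2 the Bhlhe22 and Prdm8 differences were -0.29 and -0.40. Lypd6 was not called without fraction 11 (0.088) or by the median of its probes (0.26), of which the other differed by -0.26, Sprr1a without fraction 10 or 11 (0.14 and 0.098), and Hspa12a without any of 9 fractions, 3 to 9, 11 and 12 (0.054 to 0.24). Sprr1a, a cornified envelope protein, was highest of all in fraction 10, at -0.96, and fell to -2.82 and -3.83.

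From 11 to 12 the 5 largest falls under these limits were those of Ccdc153 (2.43), Mlana (2.22), Prdm8 (2.11), Htr2c (1.82) and Bpifb6 (1.81). Htr2c, a serotonin receptor, went from 1.67 to 0.16 and -1.66, and its other tested probe was lower by 2.79. The Htr2c call was lost with the slide as a random block (limma adjusted p = 0.0505), and within slide 2 its difference was -0.80 (0.12). Mlana, a melanosome protein that was not well above background in fractions 1 to 9, had -1.46 and -1.77 in fractions 10 and 11 and -3.99 in 12, above a highest other level of -4.09. The call of Ccdc153 was lost without any of 8 fractions, 3, 4, 6 to 8 and 10 to 12 (limma adjusted p = 0.055 to 0.18), and that of Bpifb6 without fraction 10 or 11 (0.081 and 0.12).

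**Figure D4:**
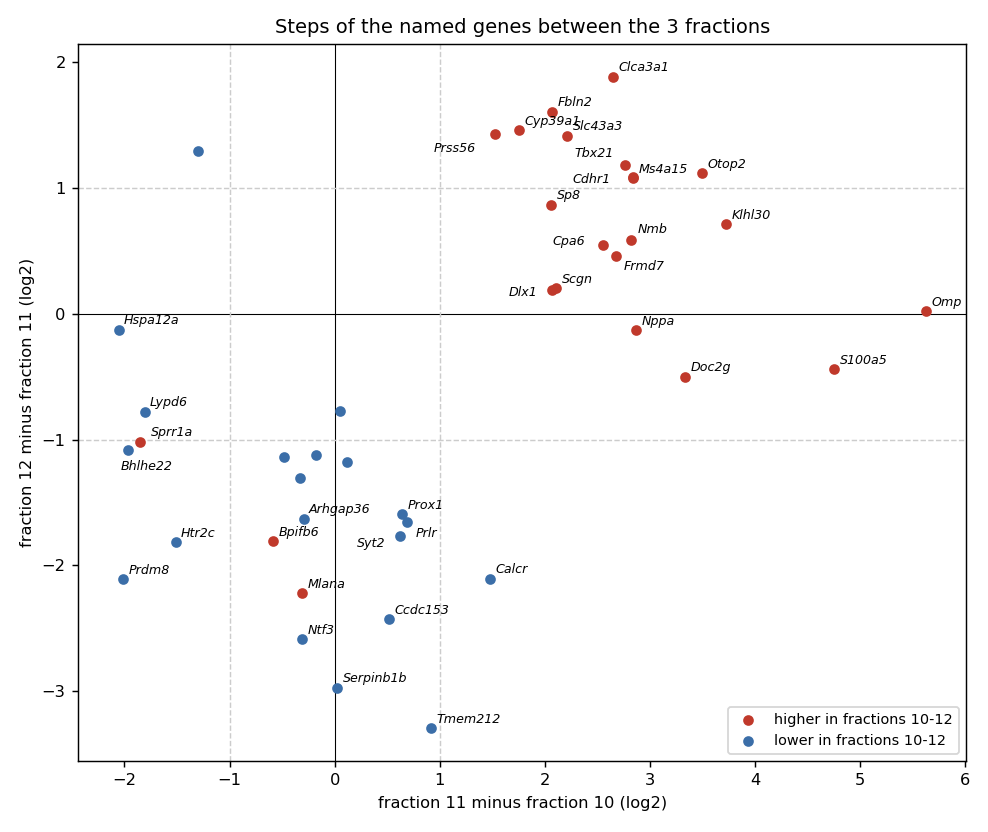
Step from fraction 10 to 11 (horizontal axis, log2) against the step from 11 to 12 (vertical axis, log2) for the 43 named genes, red where the rostral mean was higher and blue where it was lower. Dashed lines mark 1 log2. Omp and S100a5 rise by over 1 log2 only in the first step, and Clca3a1 and Fbln2 do so in both.

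The other 2 brains of the series, 1 cut sagittally into 10 fractions and 1 horizontally into 6, show the same genes from other directions. Of the 124 probes with a rostral excess over 2 log2, 62 had their highest sagittal level in the middle fractions 4 to 7, beside 29.1% of the 25245 tested probes with a value on every array, and 33 had it in fraction 1. Of the 106 probes lower by over 2 log2, 75 were also highest in sagittal fractions 4 to 7, so such a peak was not particular to the bulb genes. Ms4a15 was at -1.34, 1.14, 1.68 and 1.47 in sagittal fractions 4 to 7 and at -0.14 or less in the other 6. Tbx21 (-2.99, -0.44, -0.48 and -0.20 against at most -2.18) and Cdhr1 (0.06, 2.06, 2.46 and 1.86 against at most 0.80) were likewise highest in fractions 5 to 7. Omp and S100a5 peaked in sagittal fraction 8, at 3.42 and 4.21, beside 3.27 and 3.38 in fraction 6. In the horizontal series all 5 were highest in fraction 3, at 3.14 for Omp and 1.08 for Ms4a15.

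The many modest increases had another distribution. Of the 1750 probes higher by under 1 log2, 4.23% were highest in sagittal fractions 4 to 7 and 80.2% in sagittal fraction 1, beside 34.9% of all tested probes there. Their median level, set against the mean of coronal fractions 1 to 9, was 0.69, 0.88 and 0.47 log2 in coronal fractions 10, 11 and 12 and 1.25 in sagittal fraction 1, 0.61 in sagittal 8, 0.31 in sagittal 9, 0.60 in sagittal 10, 0.37 in horizontal 1 and 0.50 in horizontal 6. Those arrays had 75th percentiles of 135, 269, 176, 205, 267 and 233, the 6 lowest of the other 2 brains. Sagittal fraction 2, with a percentile of 364, had a median of 0.51, above those of sagittal 9 and of horizontal 1 and 6. Sagittal 7 and horizontal 2 and 3, at 385, 385 and 414, had 0.22, 0.24 and 0.21. In sagittal fractions 3 to 6 and horizontal fractions 4 and 5 the median was between -0.05 and 0.02. For the 836 probes higher by 1 to 2 log2 the median in sagittal fraction 1 was 1.87, above each rostral coronal fraction (1.24, 1.45 and 0.94). RefSeq coding transcripts were 55.4% of the probes under 1 log2 and 84.7% of those over 2 log2. The part of the low overall signal in these increases was not tested.

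**Figure D5:**
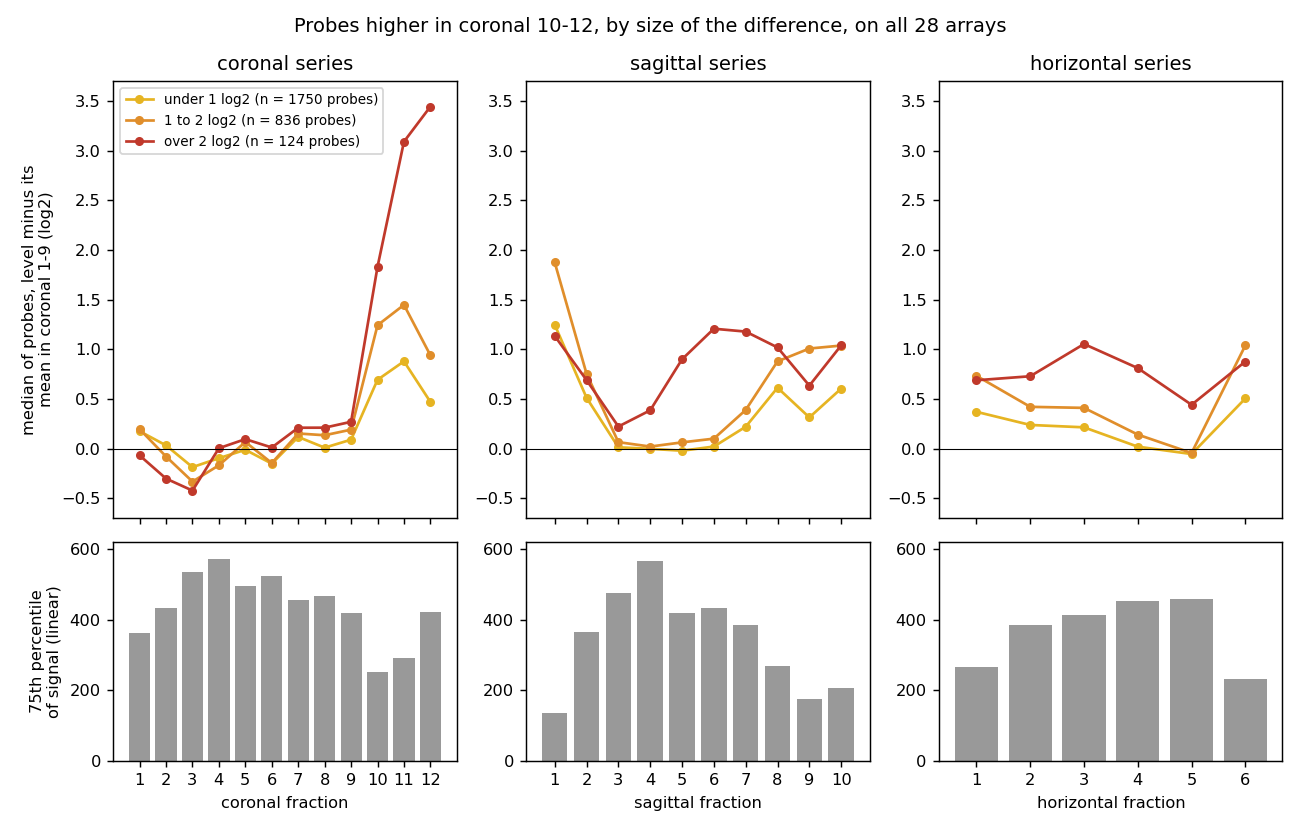
Median over the probes higher in coronal 10 to 12, in 3 classes by size of the difference, of the level minus its mean in coronal fractions 1 to 9 (log2, upper row), and the 75th percentile of the signal of each array (linear, lower row). The class over 2 log2 peaks in coronal 12 (3.44), sagittal 6 (1.21) and horizontal 3 (1.05), and the smaller classes peak in sagittal 1 (1.25 and 1.87), the array with the lowest percentile (135), but not in sagittal 9, with the next lowest (176).

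Of 3327 tested probes for genomic intervals without a gene name, 335 were higher (10.1%) and 148 lower (4.45%). The shares of all tested probes were 10.7% and 7.58%. The probes named here had the largest called differences in each direction. A_30_P01018170, for a transcribed interval at chr15:95965249-96114921 (mm9), was well above background on all 3 rostral arrays (-2.29, -2.70 and -2.11) and on 1 of the 9 others (-6.07 to -3.76), and it was called higher (limma adjusted p = 0.00195). This probe passed the filter through its rostral arrays alone, so its p-value is set mostly against background levels. Decreases came from a pair of probes for the interval chr3:125556184-125556476 (mm9), A_30_P01024196 and A_30_P01030260, which were lower by 3.05 (adjusted p = 0.000427) and 2.99 (adjusted p = 0.00017). The second was well above background on 1 of the 3 rostral arrays, so its difference is set against levels mostly not well above background. The gene content of these intervals was not examined.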

How the data were processed

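Total RNA of 28 brain fractions was labelled with Cy3 and hybridised to 1-colour Agilent arrays, and the coronal series of 12 arrays was tested. The authors deposited, for every spot, an intensity already background-corrected by Agilent Feature Extraction 10.5.1.1. The submitters' processing notes name the build mm9. A table of log2 values for 44721 probes that the authors scaled by array 75th percentile was deposited too, and its medians on the coronal arrays were -2.63 to -2.28. It matched the values computed here to within 2.4e-06 after an offset per array of 0.000576 to 0.00758 and served as an alternative.

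Outlier-flagged spots (120 to 161 on a coronal array) were dropped. Log2 of the processed signal was averaged over the spots of a probe and the 75th percentile of the array was subtracted. Repeated spots on an array had an SD of 0.056 to 0.070 log2. The number of arrays limits the precision. To be well above background a probe needed the scanner software's flag on a share of 0.5 or more of its spots, and 25270 probes passed on all arrays of at least 1 side with a value on every coronal array, 23056 of them on all 12. Names came from a RefSeq table of GRCm38.p6, which matched 27235 of 55681 probes to 20660 symbols. Each gene was represented by its brightest probe on average across the 28 arrays.

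Fractions 10 to 12 and 1 to 9 were compared with limma 3.58.1 in R 4.3.3 (lmFit and eBayes, two-sided, Benjamini-Hochberg adjustment over all tested probes, threshold 0.05), checked on simulated data. The named genes are the 12 largest differences in each direction past the threshold, the 6 largest in each direction among probes well above background on all 12 arrays, the 5 largest rises and falls of each step, Omp, S100a5 and Doc2g, and list members. Predicted symbols were left out. The rule, the compared fractions and the lists were chosen with earlier results of these data known. Alternatives changed the scaling, background correction, filter, slide, comparison side, probe choice and fractions included. Normexp was run on the median foreground signal, the one used here, in place of the mean that had been planned.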

Additional observations from a re-analysis of the deposited data

Results flagged for a closer look

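Of 75 quantities examined over the 9 other coronal fractions (named genes and mean levels of lists), 4 had a fraction far from the rest by Dixon's test, where chance gives about 1 in 20. Otop2 was at -5.998 in fraction 1, below the -3.74 to -2.64 of the other 8. Fbln2 was at -0.23 in fraction 5, above -1.07 to -0.69. The mean of the 12 tested vomeronasal receptor genes was -0.78 in fraction 3, above -1.33 to -1.07. The Hox list, of which 1 gene was tested, was at 0.93 in fraction 1, above -3.84 to -2.26 elsewhere.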

How the results depend on the processing

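The number of calls depended on which fractions entered and less on scaling. Leaving out each fraction in turn gave 709 to 2982 higher and 588 to 2109 lower probes, with the lowest of both without fraction 11. Against fractions 7 to 9 alone, 162 were higher and 117 lower. The lower count was 1147 with no filter on dim probes, 581 with the slide as a term and 768 within slide 2. With all fractions kept, the alternatives that left both counts within 1.5 times gave 2157 to 3024 higher and 1292 to 2054 lower, and in no alternative was a probe called in the opposite direction. All 124 increases and all 106 decreases over 2 log2 kept their sign wherever they were tested. Fewer of them were still called, 90 and 74 with the slide as a random block, 44 and 34 with the slide as a term, and 41 and 32 against fractions 7 to 9. Of the 43 named genes, calls were lost for 29 against fractions 7 to 9 (Omp among them, adjusted p = 0.057 in limma), 26 with the slide as a term, 23 within slide 2, 16 without fraction 11, 14 with the slide as a random block, 12 without fraction 12, at most 5 without any of the others, 7 with no filter, 6 under normexp and 1 under the array median. None was lost under quantile normalization or with the deposited log2 table. Against fractions 7 to 9 the Omp difference itself was 7.14, beside 6.75 against fractions 1 to 9, in a fit with fewer arrays.

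Counts of steps over 1 log2 depended on scaling, background correction and filter. For 10 to 11, rises numbered 2357 under the array median, 507 under normexp, 766 where both arrays were well above background and 546 past 2 log2, and falls 1010, 1294 and 1054 under the last 3. For 11 to 12, rises numbered 2031, 134, 262 and 135 and falls 801, 629, 913 and 442 under the same 4. The cause was not tested.

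No paired analysis was possible because fractions 10 to 12 and 1 to 9 share no fraction number. The comparison rests on 1 brain, and position, slide and overall signal are partly confounded in it.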
